A study of Mus musculus with 16 samples.

Results

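The dermal condensate fraction of embryonic mouse skin was compared, gene by gene, with the dermal fibroblast fraction. The 2 libraries labelled DC were set against the 2 libraries labelled Fb. Members of the comparison were all rows of the expression table that reached 1 FPKM (a fragment count corrected for transcript length and library size) in at least 2 of these 4 libraries, which held for 12273 of 23235 rows (52.8%). Of these, 10453 reached 1 FPKM in all 4 libraries, 314 in both DC libraries only, 443 in both Fb libraries only and 1063 in another combination. Just inside the limit lay Grhl3, at 1.14 and 0.762 against 1.0001 and 0.584 FPKM, and just outside it Ndufa4l2, at 0.818 and 0.130 against 5.56 and 0.999 FPKM, in the order DC replicate 1, DC replicate 2, Fb replicate 1 and Fb replicate 2 that is kept throughout.

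The study sorted cells of mouse skin at embryonic day 14.5 into 8 fractions by flow cytometry and sequenced RNA from 2 libraries of each. The labels do not spell out the fraction names. From what is generally known of the study, DC and Fb stand for dermal condensate and fibroblast, and the other names for Schwann cell (Sch), melanocyte (Mc), placode (Pc), epidermis (Epi), a mixed condensate and Schwann fraction (DCSch) and the remaining, negative cells (Neg). DC and Fb shared tissue and age, and the labels give no strain, genotype, reporter allele, sex or treatment for either. Which markers the sort used is not given in the sources used here, and a gene used to sort would differ by selection. Nor do the labels tie the replicates to separate embryos, so p-values measure the spread between these samples only, which may be technical.

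A dermal condensate is the cluster of mesenchymal cells that gathers beneath an epidermal placode when a hair follicle begins to form, and it later becomes the dermal papilla. Its cells come from fibroblasts of the upper dermis under Wnt and fibroblast growth factor signals, and they in turn send signals that direct the growth of the follicle. Condensate cells are known to leave the cell cycle as they gather, while the fibroblasts around them keep dividing and lay down the collagen-rich matrix of the dermis.

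FPKM summed to between 455108 (DC replicate 2) and 511197 (DC replicate 1), and 11563 to 11957 genes reached 1 FPKM in a library. The table holds no counts, so the depth in fragments is unknown. The most common ratio among low values, shared by 97 of 1043 genes compared for replicate 1 and 193 of 836 for replicate 2, put the depth of Fb roughly at 0.889 and 0.785 of that of DC. On the log2(FPKM + 1) scale, Pearson's r across genes was 0.951 between the DC libraries and 0.939 between the Fb libraries. It was 0.885 and 0.886 between DC and Fb libraries of the same replicate number, and 0.840 and 0.858 between those of different number. Genes are not independent replicates, so these values only describe the libraries.

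DC and Fb differed widely, with more genes lower than higher in the condensate. Of 14171 genes tested with limma, 868 were called higher in DC (6.13%) and 1304 lower (9.2%), 15.3% in all. These shares are the background for each list count below, and those with the 4 libraries alone are given in the next paragraph. A call needed a Benjamini-Hochberg adjusted p under 0.05 and an absolute difference of at least 1 on the log2(FPKM + 1) scale, the scale of every log2 difference below, always DC minus Fb. Members held 856 of the higher and 1290 of the lower calls, and the remaining 26 called rows fell outside the rule. Among members above 1 FPKM in all 4 libraries, 595 were higher and 838 lower. Members that entered through DC alone were called higher in 199 of 314 cases, and those that entered through Fb alone were called lower in 311 of 443, a split that their own entry favours.

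Many differences were large. At least 3 log2 units separated the fractions in 99 higher and 106 lower genes, and at least 5 in 12 and 8. Of the 106 and of the 8 lower genes, 4 were listed at exactly 0 in both DC libraries, and leaving them aside gives 102 and 4. Of the 99 higher genes, 3 were at 0 in both Fb libraries, and none of the 12. Both replicate pairs differed by over 1 in the called direction in 1808 of the 2172 called genes. Values that do not overlap were more common than calls, since both DC libraries lay above both Fb libraries in 21.5% of tested genes and below them in 25.2%, 46.7% in all. When the 4 libraries were fitted alone, without the other 12 in the estimate of the spread, 400 genes were called higher (2.82%) and 679 lower (4.79%), 7.61% in all. With replicate number added as a block, 971 were higher (6.85%) and 1412 lower (9.96%), 16.8% in all. In bulk libraries like these, fewer cells that express a gene and less of its RNA per cell cannot be told apart.

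**Figure D1:**
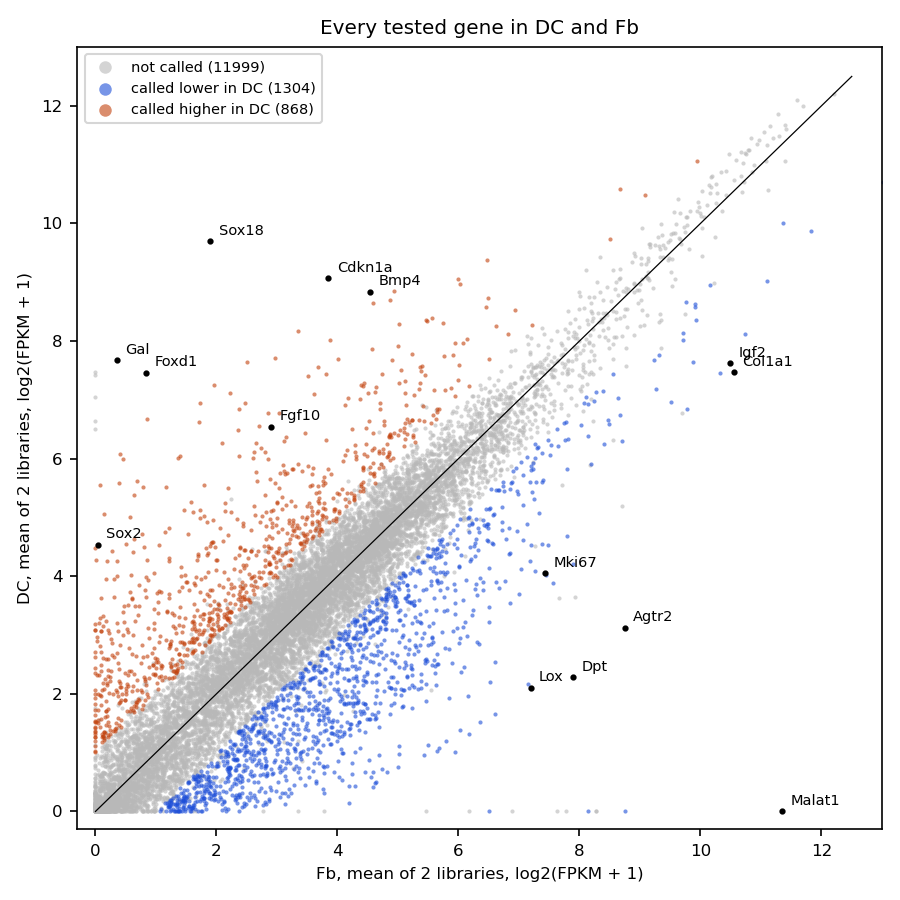
Each point is 1 of the 14171 tested genes, placed by its mean in the 2 Fb libraries (x axis) and the 2 DC libraries (y axis), both as log2(FPKM + 1), with the line of equality and named genes in black. Orange points are the 868 genes called higher in DC and blue points the 1304 called lower, with Sox18, Gal and Foxd1 far above the line and Dpt, Agtr2 and Lox far below it.

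**Figure D2:**
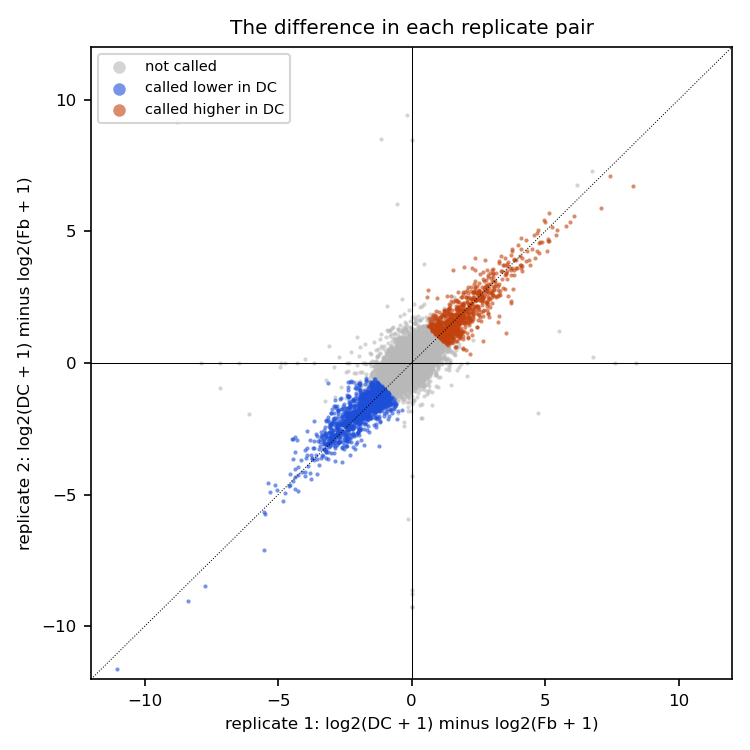
The log2 difference of each tested gene in replicate pair 1 (x axis) and in replicate pair 2 (y axis), on the log2(FPKM + 1) scale, with orange points called higher, blue points called lower and grey points not called. Called genes lie along the dotted diagonal in both directions, and grey points far out on a single axis are genes that differ widely between replicates.

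The labels were checked against markers of both cell types. Sox2, a transcription factor of condensate and papilla cells, stood at 25.1 and 19.4 FPKM in DC and 0 and 0.0557 FPKM in Fb (log2 difference 4.49 ± 0.19 (SE), adjusted p = 1.27e-07). Sox18, a SRY-box factor of vessels and of the early condensate (chromosome 2, 181669837 to 181671640 on mm10), stood at 1313 and 346 FPKM in DC and 3.14 and 2.31 FPKM in Fb (log2 difference 7.51 ± 0.65 (SE), adjusted p = 8.17e-06). The DC libraries of Sox18 were themselves far apart, yet its mean was 304-fold higher than in Fb. Foxd1, a forkhead factor of stromal progenitors (chromosome 13, 98354245 to 98356705), measured 249.8 and 101 FPKM in DC and 0.840 and 0.722 FPKM in Fb (log2 difference 6.49 ± 0.44 (SE), adjusted p = 1.68e-06). Bmp4, a ligand of the bone morphogenetic protein (BMP) family, measured 540.3 and 374 FPKM in DC and 25.7 and 18.8 FPKM in Fb.

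Fibroblast markers showed the converse. Dpt encodes the matrix protein dermatopontin (chromosome 1, 164796732 to 164824266) and measured 4.09 and 3.64 FPKM in DC and 229.6 and 245 FPKM in Fb (log2 difference -5.61 ± 0.30 (SE), adjusted p = 3.72e-07). Lox, the lysyl oxidase that cross-links collagen and elastin, measured 2.52 and 4.09 FPKM in DC and 138 and 152 FPKM in Fb (log2 difference -5.11 ± 0.24 (SE), adjusted p = 1.86e-07). All 6 of these markers had the direction that the labels give, and in none did the libraries overlap, as in 46.7% of all tested genes. They were chosen with results of these samples known, which favours that outcome.

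Of 26 condensate genes tested, 20 were called higher in DC and 2 lower, with a median log2 difference of 3.44 against -0.00326 over all tested genes. That list was chosen with results of these samples known, so it is no independent check. All 20 had their highest mean in DC among the 7 fractions other than DCSch. The pair called lower was Dkk1, a secreted Wnt inhibitor at 2.73 and 1.98 against 8.43 and 15.3 FPKM, and Ncam1, a neural cell adhesion molecule at 19.4 and 19.04 against 44.7 and 45.3 FPKM. Both lost the call when the 4 libraries were fitted alone (adjusted p = 0.054 for Dkk1 and 0.0662 for Ncam1). Vcan, the large proteoglycan versican that is often used as a condensate marker, measured 105 and 183 against 185 and 328 FPKM and was not called (adjusted p = 0.165).

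Of 24 fibroblast genes tested, 14 were lower in DC, with a median of -1.17. None was called higher by limma, and 2 were higher at an unadjusted p under 0.05. Genes shared by most mesenchyme were among those not called. Pdgfra, the platelet-derived growth factor receptor of fibroblasts, measured 81.7 and 101 against 116 and 149 FPKM. Twist2, a mesenchymal regulator, measured 303 and 185 against 277 and 138 FPKM.

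RNA of the other sorted cell types was measured through their marker genes. Of 12 markers of Schwann cells, the glia of nerves, 9 were higher in DC than in Fb. Their FPKM summed to 495 and 314 in DC, 62.3 and 49.6 in Fb and 2369 and 2464 in Sch, and no marker was at 0 in both DC libraries. The count was 6 without DC replicate 2 or without Fb replicate 1, and 5 with the 4 libraries alone. Most of the sum came from Ngfr, the low-affinity neurotrophin receptor, at 444 and 208 FPKM in DC and 52.6 and 34.1 FPKM in Fb, which was also higher in DC than its mean of 184 FPKM in Sch.

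The 11 Schwann markers without Ngfr stood in DC at 2.07% to 10.04% of their level in Sch, median 3.40%. Sox10, a defining factor of the neural crest lineage, measured 3.94 and 4.50 against 0.442 and 0.4997 FPKM. Of the 868 genes called higher in DC, 124 had a higher mean in Sch than in DC. For 13 of the 868, the excess of DC over Fb was no larger than 3.40% of the Sch level. Npy, which encodes neuropeptide Y, was 1 of the 13, at 6.05 and 4.43 against 0.796 and 0.378 FPKM and a mean of 138 FPKM in Sch. The part of Schwann RNA in the calls below was not tested.

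Markers of other types stood at low shares of the fraction that holds them. Keratinocyte genes summed in DC to 0.978% of their level in Epi and in Fb to 1.65%. Melanocyte genes summed in DC to 0.462% of their level in Mc and in Fb to 0.171%, so their share was higher in DC. The sums were 11.5 and 46.6 FPKM in DC and 9.26 and 12.2 FPKM in Fb. Of these 8 genes limma called 1 higher in DC and 0 lower, and 0 higher with the 4 libraries alone. In DC, skeletal muscle genes stood at 0.513% of their level in Neg, mast cell genes at 0.705%, macrophage genes at 2.76% and erythroid genes at 0.342%. The shares in Fb were 1.96%, 1.28%, 4.23% and 0.408%. Skeletal muscle genes summed to 11.7 and 13.5 FPKM in DC and 36.5 and 59.4 FPKM in Fb, and macrophage genes to 5.32 and 3.41 FPKM in DC and 5.75 and 7.62 FPKM in Fb. The fractions overlapped for erythroid genes, at 121 and 154 FPKM in DC and 67.5 and 260 FPKM in Fb, and for mast cell genes, at 3.48 and 9.87 FPKM in DC and 4.203 and 19.99 FPKM in Fb. For both, Fb replicate 1 alone gave a lower sum than the DC mean. Mcpt4 of mast cells and Hemgn of erythroid cells were at 0 in both DC libraries.

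Endothelial genes summed to nearly the same share of Neg in both, 6.37% in DC and 6.49% in Fb. Single genes of that list still differed, with 2 of 15 called higher in DC and 2 lower. Flt1, a receptor for vascular endothelial growth factor, was higher in DC at 10.8 and 10.9 against 0.681 and 1.42 FPKM. Kdr, another such receptor, was higher at 7.36 and 8.65 against 1.87 and 3.39 FPKM. These genes held much of the DC sum of 25.2 and 43.2 FPKM. The median gene of the list stood at 0.716 FPKM in DC and 2.31 in Fb, so similar sums do not show similar endothelial content. Erg, a factor that defines endothelium, was lower at 0.502 and 0.684 against 8.81 and 9.55 FPKM. Mural genes of vessel walls stood at 23.7% of their Neg level in DC and 70.9% in Fb, and 4 of 8 were lower in DC. Kcnj8, a potassium channel of pericytes, measured 0.197 and 0 against 17.9 and 16.8 FPKM, and its partner Abcc9 0.287 and 0.711 against 10.2 and 20.5 FPKM. In Neg, Kcnj8 measured 7.22 and 10.98 FPKM, less than in Fb. The other 4 mural genes were not called. Among them Cspg4 measured 17.4 and 7.04 against 12.9 and 4.57 FPKM. Notch3 measured 15.9 and 7.19 against 11.4 and 4.70 FPKM, so both were above Fb in each replicate pair.

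The genes with the largest differences had varied functions. Gal encodes the neuropeptide galanin (chromosome 19, 3409917 to 3414457) and measured 269 and 137 FPKM in DC and 0.553 and 0 FPKM in Fb (log2 difference 7.28 ± 0.39 (SE), adjusted p = 3.82e-07). Pdlim3, a protein of actin-anchored structures, measured 76.1 and 49.2 FPKM in DC and 0.389 and 0.366 FPKM in Fb (log2 difference 5.50 ± 0.23 (SE), adjusted p = 1.24e-07). Vat1l measured 107 and 95.04 against 0.592 and 1.02 FPKM. All 3 RNAs were under or near 1 FPKM in fibroblasts. Slc26a7, an anion exchanger, measured 41.5 and 52.1 against 0.345 and 0.289 FPKM. Sgip1, a protein of endocytosis, measured 95.7 and 149 against 2.12 and 2.50 FPKM. Trim9, a ubiquitin ligase known from neurons, measured 94.8 and 99.4 against 2.55 and 1.99 FPKM. In all 6 the lower DC library exceeded the higher Fb library by 37.1-fold or more.

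Among genes lower in DC, Agtr2, the type 2 angiotensin II receptor (chromosome X, 21484624 to 21488833), measured 5.40 and 10.1 FPKM in DC and 296 and 563 FPKM in Fb (log2 difference -5.60 ± 0.49 (SE), adjusted p = 8.3e-06). Ptn, the secreted growth factor pleiotrophin, measured 2.81 and 4.22 against 158 and 123 FPKM. Islr, a secreted leucine-rich protein, measured 3.52 and 0.779 against 127 and 65.3 FPKM. The next 3 genes also encode secreted or surface proteins. Svep1, a large adhesion protein, measured 0.750 and 0.627 against 32.5 and 29.8 FPKM. Fap, the fibroblast activation protease, measured 0.200 and 0.472 against 18.3 and 27.7 FPKM. Tmeff2, a transmembrane protein, measured 0.175 and 0.656 against 19.003 and 28.5 FPKM. These last 3 genes stayed under 1 FPKM in both DC libraries. Nrk, a protein kinase, measured 0.852 and 1.73 against 42.4 and 66.9 FPKM, and Abca9, a lipid transporter, 1.12 and 1.11 against 42.9 and 57.3 FPKM.

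Genes of mitosis were lower in the condensate almost without exception. Of 69 tested, 67 were called lower in DC, against 9.2% of all genes tested. Their median log2 difference was -2.69, and 66 or 67 were called lower whichever of the 4 libraries was left out. None was called higher by limma, and 1 was higher at an unadjusted p under 0.05. In all 67 both DC libraries lay below both Fb libraries, against 25.2% of all tested genes, an outcome that their selection as called genes favours.

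Mki67, the proliferation antigen that coats mitotic chromosomes, measured 9.98 and 21.2 FPKM in DC and 137 and 208 FPKM in Fb (log2 difference -3.44 ± 0.32 (SE), adjusted p = 1.3e-05). Cdk1, the kinase that starts mitosis, measured 2.64 and 5.57 FPKM in DC and 45.3 and 50.1 FPKM in Fb (log2 difference -3.31 ± 0.28 (SE), adjusted p = 6.95e-06). Its partner Ccnb2, cyclin B2, measured 5.42 and 6.33 against 57.8 and 50.1 FPKM. Genes of other steps of division were also lower. Top2a, the topoisomerase that untangles replicated DNA, measured 13.3 and 23.1 against 112 and 176 FPKM. Aurkb, a kinase of chromosome attachment, measured 4.03 and 5.49 against 68.4 and 48.4 FPKM. Cdc20, which activates the anaphase-promoting complex, measured 4.57 and 4.73 against 44.4 and 27.5 FPKM. The members not called were Bub3, a checkpoint protein at 49.2 and 53.6 against 62.2 and 69.1 FPKM, and Fam83d, a spindle protein at 20.9 and 21.6 against 18.1 and 8.54 FPKM. Without Fb replicate 1, Fam83d was called higher in DC (adjusted p = 0.016).

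DNA replication genes followed, with 52 of 64 called lower and a median of -1.73. The count was 45 to 50 with a library left out and 30 with the 4 libraries alone. None was higher, at an adjusted or at an unadjusted p under 0.05. Pcna, the sliding clamp of the replication fork, measured 47.4 and 50.2 against 149.9 and 185 FPKM. Tk1, thymidine kinase, measured 5.22 and 4.002 against 59.9 and 32.2 FPKM. E2f7, a repressor among the E2F factors, measured 1.44 and 1.54 against 16.7 and 15.7 FPKM. Subunits of the helicase that opens origins differed in size. Mcm3 measured 14.3 and 10.8 against 57.04 and 44.8 FPKM, log2 difference -1.94. Mcm6 measured 39.8 and 40.97 against 71.6 and 79.1 FPKM, log2 difference -0.88, and Mcm7 28.7 and 21.04 against 39.9 and 28.96 FPKM, log2 difference -0.45, and neither was called.

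DC was low beside the other fractions too, which is given as a description with no test. Among the 7 fractions without DCSch, DC had the lowest mean in 68 of the 69 mitosis genes and in 63 of the 64 replication genes. The median mitosis gene stood at 3.90 FPKM in DC, 23.4 in Epi and 32.1 to 41.7 in Mc, Fb, Neg, Sch and Pc. Mki67 averaged 15.6 FPKM in DC and 129 to 222 in the 6 others.

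The promoters of the mitosis genes share short motifs, which are shown because these genes moved together. Windows from 250 bases before to 50 bases after the transcription start came from RefSeq on GRCm38.p6, and 54 mitosis genes matched by symbol. For a symbol with several listed starts, the first was used. The cell cycle genes homology region, bound by repressor complexes of resting cells, reads TTTGAA or, in a variant, TTCGAA. The box bound by the factor NF-Y reads CCAAT. Both strands were searched, and matches of different motifs may share letters. Either form of the first was present in 41 of 54 mitosis promoters (75.9%), against 13.7% of 10326 promoters of tested genes. Within 50 bases of the start it was present in 36 of 54 (66.7%) against 3.51%. CCAAT was present in 38 of 54 (70.4%) against 38.5%, and in at least 2 copies in 26 (48.1%) against 14.5%.

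Promoters of DNA replication genes differed from these, since 11 of 53 held the first motif (20.8%) and 34 held CCAAT (64.2%). A match describes letters and is no proof of binding. Birc5, which encodes survivin, had neither motif in its window and measured 14.9 and 15.6 against 157 and 191 FPKM.

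Windows of 150 bases are printed, from 120 bases before the start to 30 bases from it on, 5′ to 3′ on the gene's strand, with every match to the 3 motifs above, on either strand, in capitals. The first 5 belong to genes called lower, and the sixth to Bub3, which was not called. Each of the 5 has a homology region match within 50 bases of the start, as in 36 of 54 mitosis promoters. They do not show the full range of motif positions. Cdk1 is shown at chr10:69352883-69353032, Ccnb2 at chr9:70421525-70421674, Cdc20 at chr4:118437314-118437463, Top2a at chr11:99024160-99024309 and Bub1 at chr2:127831830-127831979, all on the minus strand, and Bub3 at chr7:131560250-131560399 on the plus strand.
Cdk1: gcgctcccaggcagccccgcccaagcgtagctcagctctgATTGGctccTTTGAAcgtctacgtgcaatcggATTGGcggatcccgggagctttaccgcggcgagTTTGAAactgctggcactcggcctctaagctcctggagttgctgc
Ccnb2: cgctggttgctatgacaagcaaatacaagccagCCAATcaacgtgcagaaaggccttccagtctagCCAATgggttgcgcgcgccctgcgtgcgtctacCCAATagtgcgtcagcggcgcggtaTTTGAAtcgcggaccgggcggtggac
Cdc20: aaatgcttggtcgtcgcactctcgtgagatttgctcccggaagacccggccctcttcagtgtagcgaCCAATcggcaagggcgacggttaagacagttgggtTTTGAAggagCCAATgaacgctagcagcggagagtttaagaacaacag
Top2a: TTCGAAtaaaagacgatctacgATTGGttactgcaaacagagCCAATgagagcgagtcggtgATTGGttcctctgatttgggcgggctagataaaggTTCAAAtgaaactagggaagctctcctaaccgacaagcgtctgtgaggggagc
Bub1: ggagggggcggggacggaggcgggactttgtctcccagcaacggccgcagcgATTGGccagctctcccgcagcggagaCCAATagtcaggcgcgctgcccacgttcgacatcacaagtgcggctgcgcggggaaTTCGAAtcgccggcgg
Bub3: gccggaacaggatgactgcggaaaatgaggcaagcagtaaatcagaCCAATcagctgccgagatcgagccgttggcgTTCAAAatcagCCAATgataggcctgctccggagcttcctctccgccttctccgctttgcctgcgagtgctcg
In Cdk1 the homology region motif nearest to the start begins 15 bases before it, in Cdc20 18 bases and in Top2a 23 bases before it. In Ccnb2 it begins 4 bases and in Bub1 14 bases after the start. Each of these 5 windows also holds at least 2 CCAAT boxes. Bub3 has TTTGAA on the opposite strand 43 bases before its start and 2 CCAAT boxes, although its log2 difference was -0.35. Counted from a second listed start of Bub3, this match lies 167 bases upstream. The log2 difference of Bub1, a checkpoint kinase at 2.03 and 4.53 against 25.7 and 55.8 FPKM, was -3.25.

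**Figure D3:**
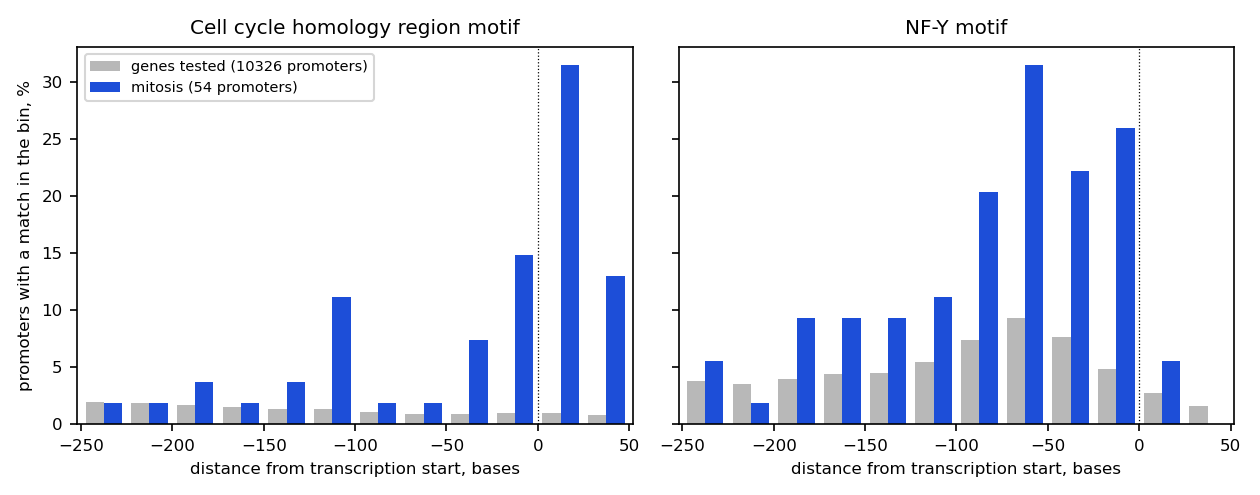
Share of promoters (y axis, %) with a match that starts in each bin of 25 bases, by distance from the transcription start (x axis, bases), for the cell cycle genes homology region (left) and the NF-Y box (right), with blue bars for 54 mitosis genes and grey bars for 10326 tested genes. In the left panel the mitosis bars are highest in the 25 bases from the start on (31.5%), where 0.978% of tested genes have a match.

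Regulators that stop the cell cycle were in part higher in DC. Of 21 cyclins, kinases and inhibitors, 4 were called higher and 5 lower, and 3 were lower without DC replicate 1 or without Fb replicate 2. With the 4 libraries alone, 2 were higher and 2 lower. Cdkn1a encodes the cyclin-dependent kinase inhibitor p21 and measured 703 and 367 FPKM in DC and 17.5 and 9.35 FPKM in Fb (log2 difference 5.20 ± 0.37 (SE), adjusted p = 2.04e-06). Its mean in the 6 fractions other than DC and DCSch was 5.21 to 35.2 FPKM. Rb1, the retinoblastoma protein that restrains E2F factors, was higher at 27.04 and 44.5 against 3.53 and 6.71 FPKM. Cdkn1c, which encodes p57, was higher at 1909.7 and 1154 against 507 and 309 FPKM, though not with the 4 libraries alone (adjusted p = 0.0524).

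Other inhibitors of the family did not share that direction. Cdkn2c, which encodes p18, was lower at 2.12 and 2.19 against 22.5 and 22.96 FPKM. Cdkn1b, which encodes p27, measured 3.62 and 3.25 against 4.32 and 3.70 FPKM and was not called. Among the cyclins, Ccne1, cyclin E1 of the entry into S phase, was lower at 3.09 and 2.92 against 16.5 and 13.9 FPKM. Ccnd1, cyclin D1 of early G1, measured 149 and 132 against 95.6 and 85.3 FPKM and was not called.

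Cdkn1a is also a target of p53. Of 23 p53 targets 7 were higher and 3 lower (30.4% and 13.04%, against 6.13% and 9.2% of all tested genes). With the 4 libraries alone 3 were higher. Plk2, a kinase induced by stress, measured 121 and 94.9 FPKM in DC and 6.08 and 6.32 FPKM in Fb (log2 difference 3.91 ± 0.20 (SE), adjusted p = 2.64e-07). Trp53inp1, a p53-induced nuclear protein, measured 10.4 and 17.2 against 1.11 and 3.06 FPKM. Other well-known targets were not called. Mdm2, the inhibitor of p53, measured 35.7 and 55.8 against 29.9 and 37.2 FPKM, and Bax, which promotes cell death, 78.1 and 38.3 against 50.2 and 24.6 FPKM. Btg2, an antiproliferative gene, was lower at 5.80 and 4.02 against 25.4 and 18.8 FPKM.

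Transcription factors separated the fractions in both directions. Of 15 Sox factors 6 were higher. The 6 included Sox10, whose excess of DC over Fb was no larger than 3.40% of its level in Sch, and Sox5, at 2.01 and 3.42 against 0.212 and 0.455 FPKM, whose excess was no larger than 10.04% of its mean of 67.5 FPKM in Sch. Sox5 lost its call with the 4 libraries alone (adjusted p = 0.0528). The part of Schwann RNA in these 2 was not tested. None of the 15 was lower by limma, at an adjusted or at an unadjusted p under 0.05. Sox11, a factor of undifferentiated progenitors, measured 111 and 160.2 FPKM in DC and 7.56 and 14.9 FPKM in Fb (log2 difference 3.52 ± 0.40 (SE), adjusted p = 6.37e-05). Sox9, a factor of cartilage and hair follicle cells, measured 34.3 and 33.9 FPKM in DC and 2.50 and 2.096 FPKM in Fb (log2 difference 3.41 ± 0.29 (SE), adjusted p = 8.02e-06).

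Repressors and developmental factors of the follicle were also higher. Prdm1, the repressor Blimp1, measured 243 and 333 FPKM in DC and 8.52 and 9.96 FPKM in Fb (log2 difference 4.80 ± 0.34 (SE), adjusted p = 2.07e-06). Trps1, a GATA-type repressor needed for hair follicles, measured 51.4 and 100.3 against 3.92 and 6.71 FPKM. Tfap2a, an AP-2 factor of ectoderm and neural crest, measured 21.03 and 16.6 against 1.32 and 1.32 FPKM. Homeobox and T-box factors of the papilla lineage belonged to this group. Alx4, a paired-type homeobox factor, measured 23.8 and 12.7 against 1.86 and 0.776 FPKM. Tbx18, which marks condensate and papilla, measured 106 and 150.3 against 19.4 and 19.9 FPKM.

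Yet most homeobox and T-box genes that were called were lower in DC, 16 against 4 of 38 tested, and 14 or 15 were lower with a library left out. Irx1, of the Iroquois family, measured 6.34 and 3.33 FPKM in DC and 149 and 44.5 FPKM in Fb (log2 difference -3.87 ± 0.76 (SE), adjusted p = 0.00293). Irx2 measured 8.45 and 6.08 against 57.7 and 46.2 FPKM. Irx5 measured 3.63 and 4.06 against 22.7 and 13.6 FPKM. The Iroquois genes thus went one way. En1, which marks the fibroblast lineage of dorsal skin, measured 0.774 and 0.250 against 7.496 and 4.54 FPKM. Meis2, a cofactor of Hox proteins, measured 4.08 and 5.80 against 24.5 and 32.4 FPKM.

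Hox genes, which carry position along the body axis, were called about as often as genes in general (15.3%) over both directions. Of 31, 4 were lower and 1 higher (12.9% and 3.23%, against 9.2% and 6.13% of all tested genes). The count lower was 2 without Fb replicate 1, 1 with the 4 libraries alone and 9 with a pseudocount of 0.1. Hoxa10 was lower at 1.11 and 1.40 against 6.17 and 8.27 FPKM. Hoxd9 was the gene called higher, at 15.8 and 11.4 against 6.55 and 5.63 FPKM, a call that did not hold without DC replicate 1 (adjusted p = 0.201), Fb replicate 1 (0.0823) or Fb replicate 2 (0.16).

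Among 46 further factors of mesenchyme, 19 were lower and 6 higher. Nfib, a nuclear factor I gene (chromosome 4, 82290173 to 82505308), measured 1.96 and 5.23 FPKM in DC and 67.8 and 114 FPKM in Fb (log2 difference -4.37 ± 0.39 (SE), adjusted p = 1.09e-05). Its relative Nfia measured 2.90 and 5.48 FPKM in DC and 51.04 and 79.5 FPKM in Fb (log2 difference -3.69 ± 0.37 (SE), adjusted p = 2.22e-05). Nfib averaged 20.8 to 84.5 FPKM in the other 5 fractions without DCSch, so DC had the lowest mean of the 7. Osr2, an odd-skipped factor of connective tissue, measured 1.11 and 0.0653 against 39.1 and 15.4 FPKM. Hic1, a repressor of quiescent mesenchymal progenitors, measured 3.14 and 1.71 against 47.7 and 17.4 FPKM. Zeb1, a regulator of the mesenchymal state, measured 5.34 and 7.48 against 25.3 and 37.2 FPKM. A close pair of factors was called in opposite directions. Ebf1 was higher in DC at 197 and 166 against 33.8 and 30.4 FPKM, and Ebf2 lower at 0.0113 and 0.221 against 2.63 and 4.14 FPKM.

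Hedgehog signalling reaches the condensate from the epithelium, and the ligand gene Shh was listed at 0 in all 4 libraries. The target genes Ptch1, Hhip and Gli1 were called higher in DC. Ptch1, both receptor and target, measured 329 and 294 FPKM in DC and 38.5 and 23.96 FPKM in Fb (log2 difference 3.31 ± 0.31 (SE), adjusted p = 1.51e-05). Hhip, a decoy that binds the ligand, measured 29.1 and 44.5 against 3.11 and 3.76 FPKM. In both of these targets the lower DC library exceeded the higher Fb library by several fold. Gli1, the activator induced by the pathway, measured 154 and 90.9 FPKM in DC and 37.2 and 13.1 FPKM in Fb (log2 difference 2.36 ± 0.53 (SE), adjusted p = 0.00681). Gli1 lost its call without DC replicate 1 (adjusted p = 0.0637), without Fb replicate 2 (0.0731) and with the 4 libraries alone (0.0714).

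Some co-receptors and other components of the pathway went the other way, with 5 of 13 lower, against 9.2% of all tested genes. The median log2 difference of the 13 was 0. None was called higher by limma, and 1 was higher at an unadjusted p under 0.05. Cdon, a co-receptor, measured 8.45 and 11.8 against 82.1 and 98.5 FPKM. Gas1, another, measured 10.1 and 6.50 against 102 and 77.8 FPKM. Gli3, which acts mostly as a repressor, measured 6.95 and 8.09 against 27.4 and 30.05 FPKM. The core of the pathway was closer between fractions. Smo, the signal transducer, measured 46.3 and 31.1 against 46.1 and 30.9 FPKM. Gli2, an activator, measured 74.02 and 43.5 against 35.3 and 15.3 FPKM, and was called higher only with replicate number in the model (adjusted p = 8.41e-05, against 0.0618 without it), without Fb replicate 1 (0.0178) or with totals rescaled (0.0481).

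BMP ligands split by gene, 3 of 10 being higher and 3 lower (30% each, against 6.13% and 9.2% of all tested genes). Bmp3, an atypical ligand that dampens the pathway, measured 224 and 173 FPKM in DC and 4.36 and 5.04 FPKM in Fb (log2 difference 5.12 ± 0.53 (SE), adjusted p = 2.85e-05). Bmp7 measured 285 and 134 FPKM in DC and 9.09 and 4.63 FPKM in Fb (log2 difference 4.70 ± 0.48 (SE), adjusted p = 2.92e-05). Bmp4, given above, differed by 4.29 log2 units. The higher ligands were abundant, and the lower ones scarce in both fractions. Gdf10 measured 0.521 and 0.298 against 9.47 and 4.68 FPKM, and Bmp5 0.196 and 0.169 against 3.09 and 4.75 FPKM. Bmpr2, a BMP receptor, measured 74.9 and 110.4 against 49.3 and 76.4 FPKM and was not called.

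Secreted antagonists were lower in 4 of 12 cases and higher in 1. Grem1, a gremlin that binds BMP ligands, measured 0.479 and 0.411 against 16.7 and 14.9 FPKM. The gene called higher was Fst, follistatin, at 11.1 and 11.4 against 3.77 and 5.76 FPKM, a call lost without DC replicate 1 (adjusted p = 0.0881), DC replicate 2 (0.0959) or Fb replicate 1 (0.16). Target genes did not point one way. Smad7, an inhibitory Smad, was higher at 24.3 and 14.6 against 3.60 and 1.54 FPKM. Id2, an inhibitor of bHLH factors, was lower at 4.79 and 6.002 against 18.4 and 26.3 FPKM. Id1 measured 23.8 and 6.45 against 79.7 and 26.5 FPKM and was called lower with replicate number in the model (adjusted p = 0.00237, against 0.0649 without it), and without DC replicate 1 (0.0183) or Fb replicate 2 (0.0266).

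Transforming growth factor beta and activin genes were higher in 2 and lower in 5 of 18 cases. Inhba, the activin A subunit, was higher at 205 and 134 against 45.4 and 39.6 FPKM. Inhbb, the activin B subunit, was lower at 0.861 and 0.774 against 15.1 and 15.05 FPKM. Tgfb2, a ligand, was lower at 0.975 and 1.60 against 8.37 and 13.9 FPKM. So the activin subunits were called in opposite directions. Tgfbi, a matrix protein named for its induction by the pathway, measured 0.404 and 0.793 FPKM in DC and 24.04 and 21.9 FPKM in Fb (log2 difference -3.92 ± 0.28 (SE), adjusted p = 2.34e-06).

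Of 19 Wnt ligands and R-spondins, 2 were higher and 5 lower, and 3 were lower with the 4 libraries alone. Rspo3, an R-spondin that boosts Wnt signalling, measured 133 and 168 FPKM in DC and 17.2 and 22.6 FPKM in Fb (log2 difference 2.86 ± 0.39 (SE), adjusted p = 0.000217). Its relative Rspo1 measured 4.62 and 2.71 FPKM in DC and 56.5 and 24.98 FPKM in Fb (log2 difference -3.08 ± 0.38 (SE), adjusted p = 0.000117). The R-spondins were thus called in opposite directions. Ndp, norrin, which acts through a Frizzled receptor, was higher at 7.52 and 10.1 against 0.0411 and 0.0729 FPKM. Wnt5a, which had the highest FPKM of the list's Wnt genes in both fractions, measured 89.004 and 111 against 86.5 and 124 FPKM. Of 20 receptors 6 were lower, among them Lgr5, an R-spondin receptor, at 0.320 and 0.630 against 9.55 and 9.27 FPKM. Fzd1, a Frizzled receptor, measured 7.53 and 5.93 against 46.4 and 46.2 FPKM.

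Of 17 Wnt inhibitors 2 were higher and 6 lower, and 3 were lower with the 4 libraries alone. Frzb, a secreted Frizzled-related protein, measured 45.03 and 44.7 FPKM in DC and 0.578 and 0.877 FPKM in Fb (log2 difference 4.74 ± 0.27 (SE), adjusted p = 4.79e-07). Wif1, a secreted Wnt-binding protein, was higher at 89.6 and 83.8 against 33.1 and 33.6 FPKM. The call of Wif1 was lost without DC replicate 1 (adjusted p = 0.0605), Fb replicate 1 (0.0502) or Fb replicate 2 (0.0511). Inhibitors were more often lower. Sfrp1, related to Frzb, measured 7.13 and 5.66 against 42.3 and 51.1 FPKM. Dkk2 measured 1.64 and 3.86 against 12.96 and 18.7 FPKM. Cpz, a carboxypeptidase that binds Wnt, measured 0.607 and 0.0997 against 23.3 and 11.3 FPKM.

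Wnt targets were called higher in 2 and lower in 4 of 17 cases (11.8% and 23.5%, against 6.13% and 9.2% of all tested genes). The count higher was 4 without Fb replicate 1, and 1 without DC replicate 1, without Fb replicate 2 or with the 4 libraries alone. Lef1, both effector and target, measured 157 and 121 FPKM in DC and 27.1 and 20.3 FPKM in Fb (log2 difference 2.50 ± 0.19 (SE), adjusted p = 3.08e-06). Axin2, the target most used as a readout, measured 54.8 and 40.3 against 36.1 and 18.6 FPKM (adjusted p = 0.136), and was called higher without Fb replicate 1 (0.0401). Sp5, another target, was lower at 1.02 and 0.415 against 18.1 and 8.09 FPKM.

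Fibroblast growth factor (FGF) ligands were mostly scarce. Of 13 tested, 2 were higher and 5 lower, and 3 were lower without Fb replicate 1, without Fb replicate 2 or with the 4 libraries alone. Fgf10, a mesenchymal signal to epithelium, measured 69.1 and 116 FPKM in DC and 5.29 and 7.74 FPKM in Fb (log2 difference 3.61 ± 0.41 (SE), adjusted p = 6.12e-05). Fgf18 was lower at 0.790 and 0.561 against 8.43 and 10.2 FPKM. Feedback inhibitors held most of the 6 higher calls among 19 receptor and feedback genes, and 1 was called with the 4 libraries alone. Dusp4, a phosphatase of ERK kinases, measured 19.9 and 12.4 against 3.71 and 2.20 FPKM. Spry1, sprouty 1, measured 115 and 66.6 against 27.7 and 14.7 FPKM, and lost its call with the 4 libraries alone (adjusted p = 0.0563). Its relative Spry2 was lower at 4.50 and 4.28 against 29.8 and 23.2 FPKM, so the sprouty genes were called in opposite directions. The receptor Fgfr1 measured 165 and 103 against 94.03 and 55.6 FPKM and was not called.

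Notch genes were higher in 5 and lower in 5 of 22 cases (22.7% each, against 6.13% and 9.2% of all tested genes). Dll1, a ligand (chromosome 17, 15367354 to 15375823), measured 75.3 and 57.99 FPKM in DC and 0.236 and 0.427 FPKM in Fb (log2 difference 5.66 ± 0.38 (SE), adjusted p = 1.63e-06). Heyl, a bHLH repressor induced by Notch, measured 106 and 57.6 against 8.45 and 7.26 FPKM. Hes5, another, measured 12.1 and 4.06 against 0 and 0 FPKM. These target genes differed in where else they were found. Heyl averaged 87.1 FPKM in Sch, above its mean of 81.9 in DC, and Hes5 averaged at most 0.505 FPKM in every fraction but DC. The lower calls of the list numbered 2 without either DC library, 3 without Fb replicate 1 and 0 with the 4 libraries alone.

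Insulin-like growth factor genes contrasted within the family. Igf1 measured 332 and 311 FPKM in DC and 41.01 and 46.4 FPKM in Fb (log2 difference 2.85 ± 0.31 (SE), adjusted p = 4e-05). Igf2 measured 229 and 163 FPKM in DC and 1610.1 and 1254 FPKM in Fb (log2 difference -2.87 ± 0.24 (SE), adjusted p = 6.36e-06). Both ligands act through the receptor gene Igf1r, which measured 19.9 and 23.1 against 23.3 and 24.7 FPKM and was not called. Binding proteins were divided as well. Igfbp3 was higher at 511 and 414 against 28.1 and 30.99 FPKM, and Igfbp5 lower at 59.03 and 90.2 against 331 and 348 FPKM.

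For retinoic acid, Cyp26b1, the enzyme that degrades it, measured 206 and 168 FPKM in DC and 13.6 and 10.02 FPKM in Fb (log2 difference 3.89 ± 0.22 (SE), adjusted p = 4.79e-07). Stra6, through which cells take up retinol, was lower at 0.0629 and 0.0765 against 4.98 and 5.43 FPKM. Of 16 genes 1 was higher, 2 without Fb replicate 1, 3 without DC replicate 2 and 4 with replicate number in the model. Rara, a receptor, measured 75.3 and 36.6 against 31.9 and 11.4 FPKM (adjusted p = 0.104 without and 0.0118 with the replicate term). Rarg, another receptor, measured 31.9 and 13.3 against 12.8 and 7.02 FPKM (0.158 and 0.000708).

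Chemokine and cytokine genes were lower in 8 of 14 cases, with a median of -2.21, and in 8 or 9 with a library left out. The exception was the receptor Cxcr4, at 72.7 and 58.003 FPKM in DC and 1.17 and 2.11 FPKM in Fb (log2 difference 4.67 ± 0.32 (SE), adjusted p = 1.68e-06). Its ligand Cxcl12 measured 4.39 and 9.37 FPKM in DC and 60.8 and 78.97 FPKM in Fb (log2 difference -3.23 ± 0.33 (SE), adjusted p = 2.85e-05), with a mean of 190.5 FPKM in Sch. Receptor and ligand were called in opposite directions. Kitl, the stem cell factor that guides melanoblasts and mast cells, measured 1.73 and 2.54 FPKM in DC and 19.4 and 37.1 FPKM in Fb (log2 difference -3.16 ± 0.41 (SE), adjusted p = 0.000168). Csf1, the macrophage growth factor, was lower at 0.608 and 0.540 against 13.5 and 11.96 FPKM.

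Signals to nerves and pigment cells were among the higher genes. Edn3, endothelin 3, which acts on melanoblasts, measured 266 and 248 FPKM in DC and 11.8 and 15.7 FPKM in Fb (log2 difference 4.14 ± 0.29 (SE), adjusted p = 1.78e-06). The receptor gene Ednrb measured 51.2 and 75.8 FPKM in DC and 0.932 and 2.23 FPKM in Fb (log2 difference 4.66 ± 0.37 (SE), adjusted p = 4.88e-06), and averaged 269 FPKM in Sch and 333 in Mc. Ntf3, neurotrophin 3, measured 29.1 and 29.5 FPKM in DC and 3.16 and 1.99 FPKM in Fb (log2 difference 3.10 ± 0.42 (SE), adjusted p = 0.00022). Of 42 genes of neuropeptides and G protein-coupled receptors, 8 were higher, Npy among them, and 11 lower. The count higher was 5 without Fb replicate 1 or with the 4 libraries alone. Avpr1a, a vasopressin receptor, was higher at 29.4 and 22.3 against 1.14 and 1.27 FPKM. S1pr3, a receptor for sphingosine 1-phosphate, was lower at 2.53 and 3.25 against 72.7 and 67.4 FPKM. Lpar1, a receptor for lysophosphatidic acid, was lower at 6.03 and 6.73 against 63.4 and 93.5 FPKM.

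Guidance genes first described in axons were called in both directions. Of 30 semaphorins and their receptors, 6 were higher and 3 lower, which became 2 and 1 without DC replicate 1, without Fb replicate 2 or with the 4 libraries alone. Nrp2, a co-receptor for semaphorins and vascular growth factors, measured 416 and 386 FPKM in DC and 24.3 and 21.97 FPKM in Fb (log2 difference 4.06 ± 0.31 (SE), adjusted p = 3.26e-06). Sema6a, a membrane semaphorin, was higher at 119 and 109 against 24.7 and 25.5 FPKM, and Sema5b lower at 1.54 and 0.607 against 14.4 and 9.09 FPKM.

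Of 34 ephrin, slit and netrin genes, 9 were higher and 4 lower, and 4 and 2 with the 4 libraries alone. All 9 had their highest mean in DC among the 7 fractions without DCSch. Dcc, a netrin receptor, measured 14.95 and 25.2 FPKM in DC and 1.70 and 3.58 FPKM in Fb (log2 difference 2.54 ± 0.33 (SE), adjusted p = 0.000148). The netrin gene Ntn1 measured 4.91 and 2.02 FPKM in DC and 61.2 and 35.9 FPKM in Fb (log2 difference -3.50 ± 0.47 (SE), adjusted p = 0.00019). Receptor and ligand of this pair were called in opposite directions. Epha7, an ephrin receptor, was higher at 25.2 and 42.2 against 4.84 and 8.53 FPKM, and the ligand gene Efna5 lower at 9.66 and 16.3 against 80.98 and 121 FPKM. Robo1, a slit receptor, was higher at 87.6 and 83.04 against 29.4 and 30.003 FPKM.

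**Figure D4:**
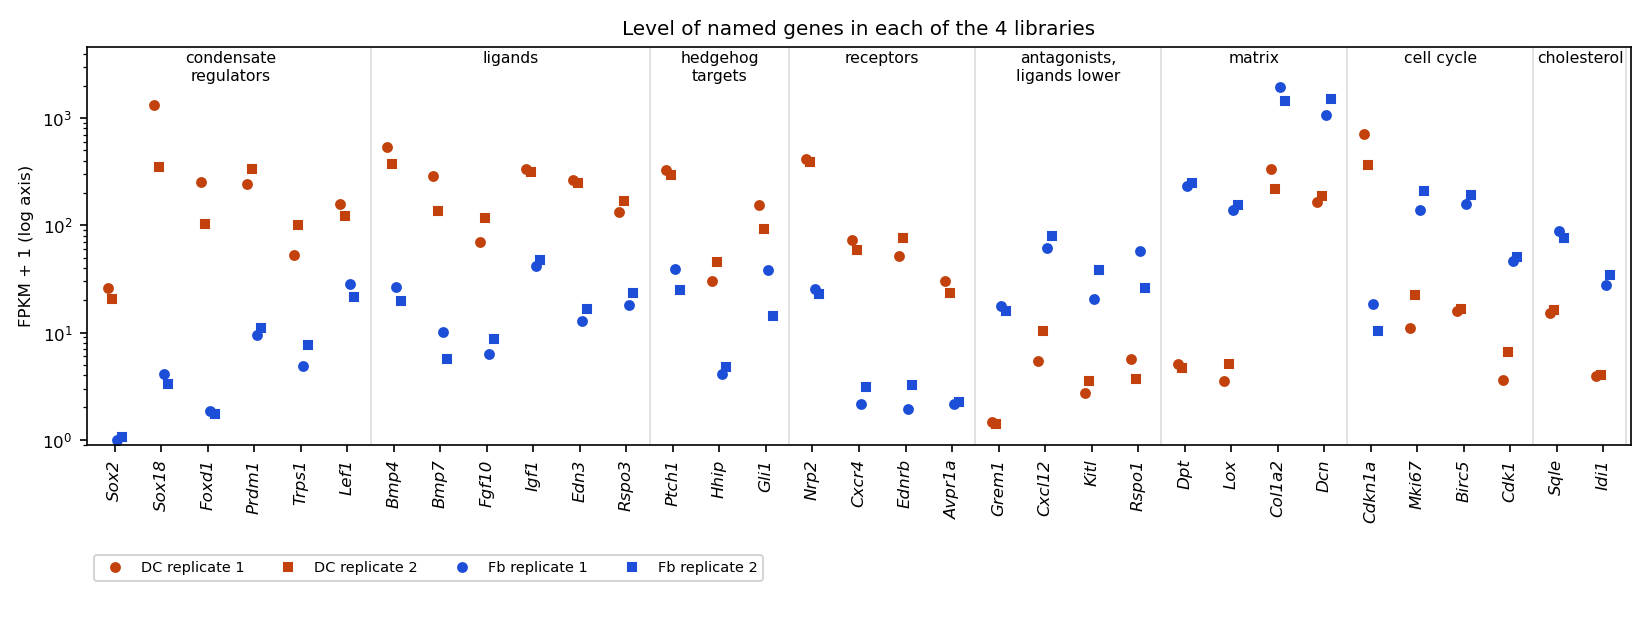
FPKM + 1 on a log axis (y axis) for named genes grouped by role (x axis) in each of the 4 libraries, with orange marks for DC and blue marks for Fb, circles for replicate 1 and squares for replicate 2. In each gene shown the orange and blue marks do not overlap, as in 46.7% of all tested genes. All genes shown were called, which favours that. For Gli1 the gap is narrowest among the hedgehog targets, from 37.2 FPKM in Fb to 90.9 FPKM in DC.

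Among matrix genes of the dermis, fibrillar collagens and small proteoglycans were mostly lower in DC, and other groups moved in part. Of 12 fibrillar and fibril-associated collagens, 7 were lower, with a median of -1.51, and 5 without DC replicate 2 or Fb replicate 1. None was higher by limma, at an adjusted or at an unadjusted p under 0.05. Col1a2, a chain of type I collagen, measured 334 and 217 FPKM in DC and 1963 and 1428 FPKM in Fb (log2 difference -2.63 ± 0.34 (SE), adjusted p = 0.000146). Col1a1, the other chain, measured 248 and 103 FPKM in DC and 2344 and 662 FPKM in Fb (log2 difference -2.95 ± 0.72 (SE), adjusted p = 0.0118). The call of Col1a1 was lost without DC replicate 2 (adjusted p = 0.0983), without Fb replicate 1 (0.108), with the 4 libraries alone (0.0773) and with no filter on low values (0.055). Col3a1, type III collagen, was lower at 1099 and 959.6 against 2514 and 2726 FPKM. Col12a1, a fibril-associated collagen, was lower at 22.5 and 26.9 against 206 and 237 FPKM. All 7 had their highest mean of the 7 fractions in Fb, while Col3a1 still averaged 1029 FPKM in DC.

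Collagens of other kinds followed no single direction, 5 of 20 being higher and 6 lower, with 3 higher without DC replicate 1, without Fb replicate 2 or with the 4 libraries alone. Col23a1, a transmembrane collagen, measured 263 and 203 FPKM in DC and 24.1 and 21.4 FPKM in Fb (log2 difference 3.29 ± 0.24 (SE), adjusted p = 2.43e-06). Col15a1, found beside basement membranes, was higher at 30.6 and 19.6 against 4.04 and 3.13 FPKM. Col6a1, of the type VI microfibrils, measured 616 and 350.1 against 436 and 265 FPKM and was not called. Genes of collagen processing sided with the fibrillar collagens, 9 of 19 being lower and 1 higher, with 5 lower without Fb replicate 1 or with the 4 libraries alone. Pcolce, an enhancer of procollagen cleavage, was lower at 20.5 and 11.4 against 214 and 91.6 FPKM. The gene called higher was Loxl2, a relative of Lox, at 212 and 173 against 65.2 and 61.1 FPKM.

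Small proteoglycans were lower in 8 and higher in 1 of 11 cases, with a median of -2.53, and in 8 and 0 with the 4 libraries alone. Dcn, decorin, measured 163 and 185 FPKM in DC and 1066 and 1498 FPKM in Fb (log2 difference -2.86 ± 0.29 (SE), adjusted p = 2.62e-05). Lum, lumican, was lower at 186 and 211 against 688 and 1189 FPKM. Ogn, osteoglycin, measured 1.03 and 2.18 against 38.3 and 90.2 FPKM, but the table lists it and Aspn, asporin (0.358 and 1.55 against 28.1 and 55.7 FPKM), at 1 shared locus, so their reads may not be told apart. Elastic fibre genes were lower in 6 and higher in 1 of 16 cases, and in 3 and 0 with the 4 libraries alone. Efemp1, fibulin 3, was lower at 1.11 and 1.88 against 54.9 and 86.98 FPKM. Eln, elastin itself, measured 49.1 and 25.5 against 55.3 and 29.1 FPKM and was not called.

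Of 25 matricellular and adhesive glycoproteins, 10 were lower and 6 higher. Fn1, fibronectin, measured 75.6 and 79.4 FPKM in DC and 442 and 391 FPKM in Fb (log2 difference -2.41 ± 0.22 (SE), adjusted p = 1.27e-05). Sparc, a collagen-binding protein, was lower at 566 and 471 against 2298 and 2106 FPKM. Thbs2, thrombospondin 2, was lower at 1.26 and 2.52 against 76.3 and 84.97 FPKM. Some genes of the same class were higher. Smoc1, a calcium-binding relative of Sparc (chromosome 12, 81026808 to 81186414), measured 166 and 110.3 FPKM in DC and 3.83 and 3.46 FPKM in Fb (log2 difference 4.88 ± 0.26 (SE), adjusted p = 3.85e-07). Tnc, tenascin C, was higher at 86.8 and 80.6 against 30.4 and 26.2 FPKM.

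Genes of matrix proteases and their inhibitors were called in both directions, 6 higher and 12 lower of 34. These were 17.6% and 35.3%, against 6.13% and 9.2% of all tested genes. Adamts18 measured 35.7 and 29.3 FPKM in DC and 0.0552 and 0.161 FPKM in Fb (log2 difference 4.91 ± 0.22 (SE), adjusted p = 1.48e-07). Adamts4, which cuts large proteoglycans, was higher at 64.8 and 42.2 against 6.61 and 4.04 FPKM. Adamts17 was lower at 1.12 and 0.873 against 16.6 and 15.7 FPKM. Among the inhibitors, 3 Timp genes were lower together. Timp1 measured 2.09 and 1.45 against 19.6 and 18.4 FPKM. Timp2 measured 23.7 and 17.9 against 82.2 and 75.6 FPKM, and Timp3 10.7 and 17.1 against 44.5 and 58.1 FPKM. At the cell surface, Sdc1, syndecan 1, was higher at 253 and 183 against 38.9 and 34.3 FPKM.

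Of 43 cadherins and other adhesion molecules, 5 were higher and 11 lower, and 3 and 5 with the 4 libraries alone. Vcam1, an adhesion molecule of the immunoglobulin family, measured 17.03 and 17.9 FPKM in DC and 197 and 276 FPKM in Fb (log2 difference -3.66 ± 0.26 (SE), adjusted p = 2.04e-06). Gja1, the gap junction protein connexin 43, was higher at 103 and 137 against 12.3 and 20.6 FPKM. Cdh11, the main cadherin of mesenchyme, measured 364 and 497 against 222 and 348 FPKM and was not called. Contractile genes were lower in 10 and higher in 3 of 34 cases (29.4% and 8.82%, against 9.2% and 6.13% of all tested genes). With the 4 libraries alone 5 were lower and 2 higher. Pdlim3, given above, was among those higher, and the lower genes stood beside the lower mural markers given above. Acta2, smooth muscle actin, measured 1.38 and 0.953 FPKM in DC and 26.8 and 35.7 FPKM in Fb (log2 difference -3.89 ± 0.40 (SE), adjusted p = 3.1e-05). Tpm1, a tropomyosin, was lower at 106 and 93.2 against 348 and 357 FPKM. Genes of ion channels and synapses were higher in 8 and lower in 8 of 56 cases, 14.3% each against 6.13% and 9.2% of all tested genes. With the 4 libraries alone the counts were 4 and 4, against 2.82% and 4.79% of all tested genes. Grin2a, a glutamate receptor subunit, measured 35.4 and 55.95 FPKM in DC and 0.0186 and 0.0872 FPKM in Fb (log2 difference 5.43 ± 0.33 (SE), adjusted p = 7.17e-07). Lynx1, a modulator of nicotinic receptors, was higher at 189 and 113 against 3.38 and 2.44 FPKM.

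Cholesterol synthesis was lower in DC as a group. Of 28 genes tested 18 were lower, with a median of -1.41, and 16 to 18 with a library left out. None was higher by limma, at an adjusted or at an unadjusted p under 0.05. Idi1, an isomerase early in the pathway, measured 2.97 and 2.98 FPKM in DC and 26.5 and 33.3 FPKM in Fb (log2 difference -2.95 ± 0.33 (SE), adjusted p = 4.72e-05). Sqle, squalene epoxidase, measured 14.3 and 15.1 FPKM in DC and 86.8 and 74.4 FPKM in Fb (log2 difference -2.37 ± 0.18 (SE), adjusted p = 3.63e-06). Insig1, a brake on the pathway that is regulated together with it, was also lower and measured 4.53 and 4.25 against 39.5 and 33.7 FPKM. Srebf2, the factor that drives these genes, measured 17.99 and 10.6 against 40.2 and 18.6 FPKM (adjusted p = 0.149), and was called lower without Fb replicate 2 (0.0474). Of the 18, DC had the lowest mean of the 7 fractions in 12 and Fb the highest in 14.

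Imprinted genes are expressed from 1 parental copy in at least some tissues, and many of them control growth. Whether 1 or both copies were read in these cells was not measured. They were lower in 16 and higher in 4 of 25 cases, with 13 or 14 lower when a library was left out, and with 8 lower and 2 higher for the 4 libraries alone. Mest, a paternally expressed gene, measured 94.8 and 134 FPKM in DC and 729.9 and 1025 FPKM in Fb (log2 difference -2.93 ± 0.26 (SE), adjusted p = 1.08e-05). Grb10, an inhibitor of insulin receptor signalling, was lower at 74.97 and 89.7 against 249.7 and 309.5 FPKM. Peg3, a zinc finger gene, was lower at 196 and 209 against 575 and 625 FPKM. Igf2 and Dcn, given above, also belong to this list. Nnat, neuronatin, was higher at 434 and 235 against 60.7 and 31.9 FPKM, and Snrpn, a splicing protein, at 47.4 and 41.1 against 5.91 and 8.39 FPKM. H19, a noncoding RNA that limits growth, was lower at 373 and 186 against 1056 and 625 FPKM, though not without DC replicate 2 (adjusted p = 0.164), Fb replicate 1 (0.142) or the other fractions (0.114). Of the 16, Fb had the highest mean of the 7 fractions in 9 and DC the lowest in 2.

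Immediate early and stress genes respond within minutes, and are known to respond to cell isolation. Of 33, 13 were lower in DC and 3 higher. The count lower was 7 without DC replicate 2, 6 without Fb replicate 1 and 5 with the 4 libraries alone. Klf2, a Krüppel-like factor, was lower at 0.699 and 0.305 against 36.3 and 8.57 FPKM. Cyr61, a matrix signal of that class, was lower at 16.9 and 10.5 against 237 and 137 FPKM. Fos was lower at 7.76 and 4.52 against 55.7 and 24.6 FPKM, though not without DC replicate 2 (adjusted p = 0.0647) or Fb replicate 1 (0.0756). Replicate 1 was above replicate 2 in both fractions for each of these 3 genes. Klf4, another factor of the family, was higher in DC at 74.05 and 36.8 against 11.9 and 5.16 FPKM. Of the 13, Fb had the highest mean of the 7 fractions in 11.

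Genes of respiration and of the ribosome were close between the fractions. Of 34 oxidative phosphorylation genes limma called none, with a median of 0.03, and of 41 ribosomal protein genes none, with a median of 0.29. At an unadjusted p under 0.05, 1 of the 34 was higher and 2 lower, and 7 of the 41 were higher and 0 lower. Rpl38, a ribosomal protein gene, measured 3567 and 2975 against 2954 and 2457 FPKM. In glycolysis and the response to low oxygen 4 of 33 were higher and 1 lower, with 1 higher for the 4 libraries alone. These were 12.1% and 3.03%, against 6.13% and 9.2% of all tested genes. Only both directions together were about the share among all tested genes (15.3%). The count lower was 2 without Fb replicate 1 and 3 without DC replicate 1 or Fb replicate 2.

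**Figure D5:**
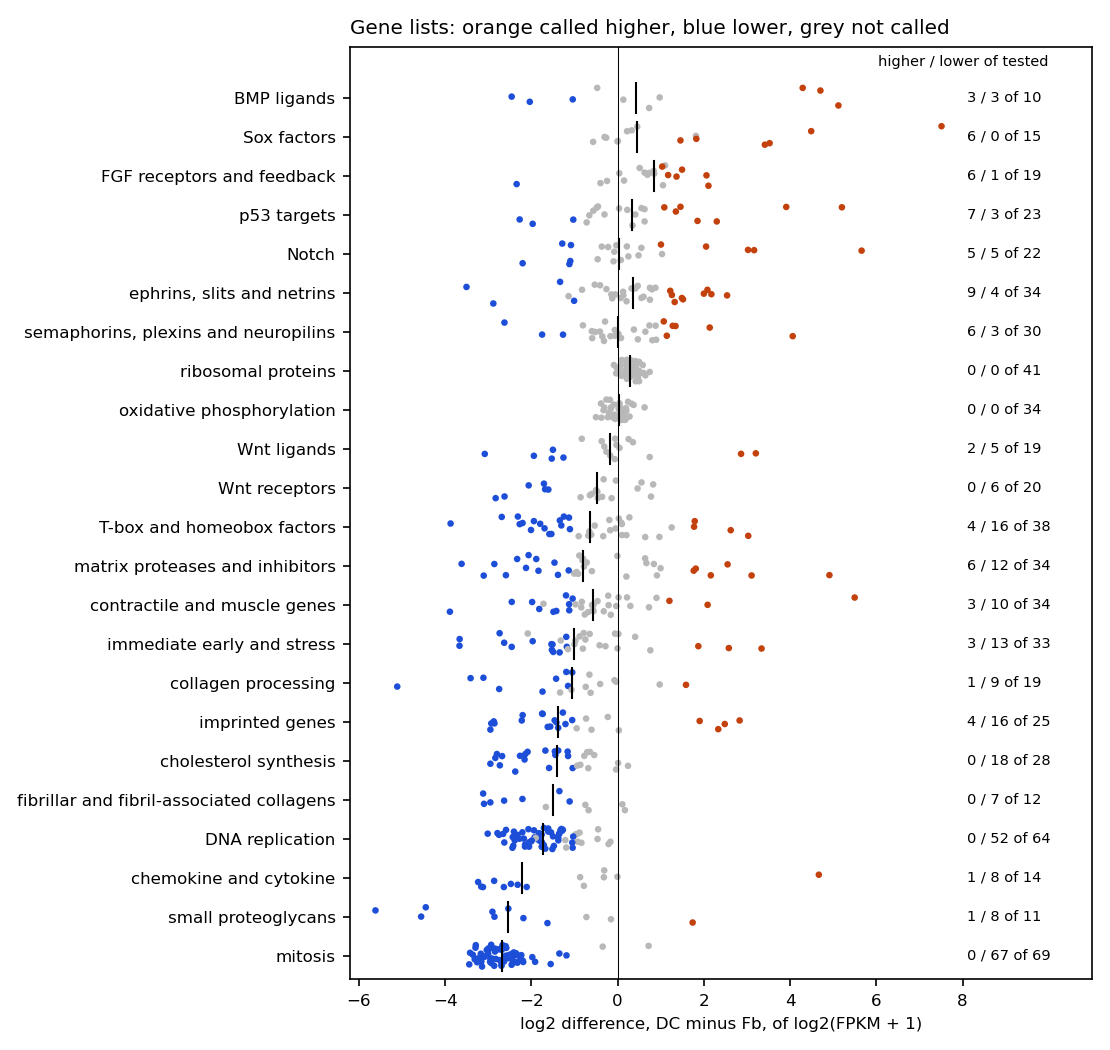
Log2 difference between DC and Fb (x axis, log2(FPKM + 1) scale) for each tested member of 23 gene lists (y axis), with orange points called higher, blue lower and grey neither, black ticks at list medians and the numbers called higher and lower at the right. Mitosis, at a median of -2.69, lies almost wholly to the left, and ribosomal and oxidative phosphorylation genes stay near 0.

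Exact zeros of abundant RNAs were kept apart. Malat1, a long nuclear RNA, was listed at 0 in both DC libraries and at 2101 and 3102 FPKM in Fb. It reached 20 FPKM in 14 of the 16 libraries of the series, so the zeros may be failed estimates and no fold is given, although it counts among the 1304 lower calls. The same holds for 2 small nucleolar RNAs, Snora21, at 0 and 0 in DC against 211.3 and 351 FPKM in Fb, and Snora17, at 0 and 0 against 44.5 and 136 FPKM, which reached 20 FPKM in 14 and 11 of the 16 libraries. Mir199b, a microRNA gene, was called lower from 0 and 0 in DC against 333 and 523 FPKM in Fb, and reached 20 FPKM in the 2 Fb libraries only. Rnu11, a small spliceosomal RNA, was listed at 0 and 570.4 against 445 and 0 FPKM, with a zero in 1 library of each fraction. Sox2 and Gal were at 0 in 1 Fb library each and near 0 in the other, unlike Malat1.

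Single libraries also stood apart for a few genes. Genes of microRNAs and of small nucleolar and Cajal body RNAs, and predicted genes named Gm or Rik, were not ranked here, and gaps between replicates were wider in some of them, as in Snora75 (0 and 380 FPKM in DC) and Snora30 (551 and 0 FPKM in Fb). Among the rest with at least 10 FPKM in a library, Dancr, a noncoding RNA, had the widest gap between the DC replicates after Rnu11, at 4.39 and 73.5 against 2.92 and 4.56 FPKM. Then came Dpm3, at 49.2 and 5.66 against 74.8 and 5.92 FPKM, and Josd2, at 16.3 and 2.43 against 11.6 and 0.904 FPKM. In Dpm3 and Josd2 replicate 1 was high in both fractions. Phlda2, an imprinted gene at 20.2 and 2.80 against 0.848 and 0.717 FPKM, was called higher, but not without DC replicate 1 (adjusted p = 0.38), Fb replicate 1 (0.128) or Fb replicate 2 (0.159). Between the Fb replicates the widest gaps of the ranked genes after Rnu11 were those of Rnu12 (46.6 and 64.6 against 69.4 and 0 FPKM), Fam65a (14.6 and 8.3997 against 477 and 9.53 FPKM), Hist1h2ak (4.74 and 1.64 against 89.6 and 1.40 FPKM) and Inpp5b (12.1 and 10.7 against 392 and 10.6 FPKM). In the last 3 of these, Fb replicate 1 alone stood above the other libraries.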

How the data were processed

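RNA from sorted cells was reverse transcribed and amplified with a NuGEN Ovation kit before library preparation, per the labels' protocols, and amplification can distort low values. TopHat2 2.0.3, Bowtie2, Cufflinks 2.1.1 and the build mm10 are named in the submitters' processing notes. The authors deposited 1 table of FPKM values for 16 libraries, and the way multimapping reads were counted is not given in the sources used here. FPKM were taken as log2(FPKM + 1), which understates the change of low genes. Rows with at least 1 FPKM in 2 of 16 libraries were fitted with limma 3.58.1 (R 4.3.3, trend and robust options) with 1 mean per fraction, and DC was contrasted with Fb. The spread was estimated from all 16 libraries. Benjamini-Hochberg adjustment covered all 14171 tested genes. The fit was also run on simulated data whose errors were independent between libraries. That simulation lacked the shared deviations of same-numbered libraries described next, so it cannot show their effect on the calls.

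Same-numbered libraries deviated together in all 28 pairs of fractions (r across genes 0.148 to 0.656, median 0.491, and 0.656 for DC with Fb), so the replicate numbers were read as a pairing from these correlations, and a fit with replicate number as a block was an alternative. Other alternatives were pseudocounts of 0.1 and 0.5, other filters, the 4 libraries alone, rescaled totals, quantile normalization and leaving out each library.

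Named genes were the 20 largest called differences in each direction with at least 10 FPKM in both libraries of the higher fraction and no overlap, the markers, up to 8 called members per list and direction, further members given for their role, the 5 widest gaps between replicates of each fraction, and abundant genes listed at 0. The ranked genes exclude symbols of several rows and Mir, Snora, Snord, Scarna, Gm and Rik names. Report space allowed fewer than the rule admits, and results for some genes are not reported here. The comparison, the markers and the 64 gene lists with 1535 entries were chosen with earlier results of these data known. Promoter sequences came from RefSeq on GRCm38.p6.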

Additional observations from a re-analysis of the deposited data

How the results depend on the processing

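Over all tested genes, 868 were called higher and 1304 lower in DC. Fitting only the 4 DC and Fb libraries gave 400 and 679, with fewer samples behind the estimate of the spread. Leaving out each library gave 771 to 890 higher and 1121 to 1270 lower, and the pseudocounts, filters, rescaled totals and quantile normalization moved neither count by over 1.5 times. With the replicate block the counts were 971 and 1412, 2170 of the 2172 called genes kept their call, and among named genes the pairing changed no call other than those of Dhrs3, Gli2, Id1, Ndufa4l2, Rara and Rarg, which gained one. All 4 leave-outs kept 1427 of the 2172 calls, and every alternative kept 1031 (381 higher and 650 lower). Leaving aside the 4 called from exact zeros, of 178 named genes that were called, 165 kept the call in every alternative and 13 lost it in at least 1. No called gene that is named changed direction. Some genes that were not called changed sign with a library left out. Over the 4 leave-outs the log2 difference ran from -2.05 to 1.402 for Dpm3, -0.64 to 0.28 for Eln, -5.30 to 0.20 for Fam65a, -4.54 to 0.70 for Hist1h2ak, -0.71 to 2.02 for Josd2, -4.40 to 4.76 for Rnu11, -0.33 to 5.80 for Rnu12, -0.27 to 0.29 for Smo, -8.34 to 0.23 for Snora75, -0.23 to 0.78 for Twist2 and -0.31 to 0.20 for Wnt5a. The sign turned without Fb replicate 1 for Dpm3, Eln, Fam65a and Hist1h2ak, without Fb replicate 2 for Josd2, Rnu11, Rnu12, Smo, Twist2 and Wnt5a, without DC replicate 1 for Josd2, Smo and Snora75, and without DC replicate 2 for Dpm3, Eln and Rnu11, counting changes to a value past 0.1. The cause was not tested. The depth in fragments is unknown, so a difference between low values, such as those under 1 FPKM, has no counting error of its own here.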
